A study of Ostrinia nubilalis with 16 samples.

Results

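The corn response of the larval gut of S-strain, the Bt-susceptible strain of Ostrinia nubilalis, the European corn borer, was examined on the 8 single-colour arrays of that strain, out of 16 arrays in all. They comprised 4 arrays of larvae fed transgenic corn leaves and 4 arrays of larvae fed non-transgenic corn leaves, and were chosen by their labels alone. The array carried 12972 probes besides its controls. A signal well above background on 4 or more of these 8 arrays was found for 10551 probes, which were kept, and 1481 of the other 2421 gave such a signal on none. Third-instar larvae were starved for 24 h and fed for 6 h on leaves of a corn line that carries a Cry1Ab transgene or of its near isoline without the transgene, and each array held whole-gut RNA of a pool of 5 larvae. The other 8 arrays held the same feeding design in R-strain, a laboratory line selected from S-strain on Cry1Ab protoxin, and serve here only to show where the response of S-strain differed. The 2 corns are different hybrids, so the transgene and any other difference between the leaves cannot be told apart, and each strain is 1 laboratory colony.

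Cry1Ab is a crystal protein of the bacterium Bacillus thuringiensis that is cut to its active form by trypsin- and chymotrypsin-like serine proteases of the caterpillar midgut. The active toxin binds to proteins of the brush border, among which aminopeptidase N, cadherin, alkaline phosphatase and ABC transporters are known in moths, and then forms pores in the cell membrane. The midgut is also the main site of digestion of leaf protein and of the enzymes that act on plant compounds, such as cytochromes P450, carboxylesterases and beta-glucosidases.

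The deposited tables give a name and a sequence of 60 bases for each probe and no gene. Names of genes were therefore available only where a probe shared at least 18 consecutive bases with a primer that the study printed for its quantitative PCR, which held for 21 probes of 6 genes. These genes fell into 7 probe sets, and 1 probe of each is printed because only these could be tied to a gene. They run from 5′ to 3′, with the bases shared with the primer in capitals. The study had chosen these genes for PCR among those it called changed on these same arrays. Their direction on transgenic corn is thus a description and no independent evidence. In ECB_Gut 2262 the 18 shared bases lie in a short repeat and occur again further along the probe, not in capitals. The name Contig[0293] is therefore less certain than the others.
Contig[0130], a chymotrypsin-like protease, ECB_Gut 508: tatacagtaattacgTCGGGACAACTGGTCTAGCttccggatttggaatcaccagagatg
ECB-C-18-B11, a trypsin-like protease, ECB_Gut 7513: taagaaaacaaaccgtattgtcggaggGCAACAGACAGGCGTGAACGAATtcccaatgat
Contig[0293], a trypsin-like protease, ECB_Gut 2262: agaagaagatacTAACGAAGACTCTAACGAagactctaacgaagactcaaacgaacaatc
Contig[0039], a trypsin-like protease, ECB_Gut 6550: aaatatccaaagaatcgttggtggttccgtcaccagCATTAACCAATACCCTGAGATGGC
Contig[1398], an aminopeptidase N, ECB_Gut 2843: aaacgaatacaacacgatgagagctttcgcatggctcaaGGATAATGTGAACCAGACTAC
Contig[1398], ECB_Gut 2844: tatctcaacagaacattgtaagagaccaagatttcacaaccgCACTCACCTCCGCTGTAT
Contig[5112], an aminopeptidase N, ECB_Gut 9538: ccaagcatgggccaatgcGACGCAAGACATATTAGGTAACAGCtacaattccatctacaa

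All 8 S-strain arrays lay on 1 slide and were scanned together, with 2 arrays of each corn in each of the 2 slide rows. The number of probes above background was 9244 to 10709 per array, and the 75th percentile of the signal was 733 to 1166. The lowest number belonged to transgenic replicate 1, and the other 7 arrays had 10356 or more. Levels are given as the log2 signal of an array minus the log2 of its 75th percentile, so that a level of 0 lies at that percentile. The median SD between replicate arrays was 0.339 on this log2 scale for transgenic corn and 0.303 for non-transgenic corn. Fewer cells of a type in the gut and less RNA per cell cannot be told apart in such pools.

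Close to 1 probe in 5 differed between the corns. Of 10544 probes tested, 2000 were past the threshold (19%), with 923 higher (8.75%) and 1077 lower (10.2%) in larvae fed transgenic corn leaves. The threshold was a Benjamini-Hochberg adjusted p under 0.05 in limma together with an expression ratio of at least 2. Because several probes were designed for a transcript, probes that overlapped end to end by 20 or more identical bases were joined into probe sets, and the mean of the probes was tested. Of 4451 probe sets, 891 were past the threshold (20%), of which 374 were higher (8.4%) and 517 lower (11.6%). Of the 4454 sets with a kept probe, 2288 held 1 probe and the largest held 50. A transcript may lie in several sets and a set may join several transcripts, so these are shares of sets. Background correction by normexp, with an offset of 50 added to each signal, gave 889 probes, 548 higher and 341 lower, and 399 probe sets, 229 higher and 170 lower. With normexp the median log2 ratio of all probes moved from 0.04 to 0.39, and that of all probe sets from 0.04 to 0.47. The split also depended on the minimum ratio. With the processed signal and a minimum of 1.5, 1533 probes were higher and 1464 lower, and with no minimum 1577 and 1483. For probe sets these numbers were 719 and 739 with a minimum of 1.5, and 787 and 775 with none. More probes and sets were thus lower than higher at a minimum ratio of 2 with the processed signal, and not with normexp or, for probes, with a lower minimum.

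With the processed signal falls were somewhat larger than rises. The median ratio of the probe sets past the threshold was 2.99-fold among those that fell and 2.57-fold among those that rose. A ratio of at least 4 was reached by 150 of the sets that fell and 74 of those that rose, and one of at least 16 by 16 and 9. The arrays of the corns did not overlap in 484 of the 517 falling and 349 of the 374 rising sets, whereas 1586 of all 4451 sets (35.6%) did not overlap, 793 in each direction (17.8%). Over all probe sets the 5th and 95th percentiles of the log2 ratio were -1.68 and 1.34, and the median standard error was 0.22. The response was spread over the range of signals. When the probes were ranked by signal into 4 equal parts, 10.3% of the dimmest were higher and 10.7% lower, against 5.77% and 7.97% of the brightest. Probes that fell had a median of 41.7% G and C, against 38.3% for probes that rose and 38.3% for the probes not past the threshold.

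**Figure D1:**
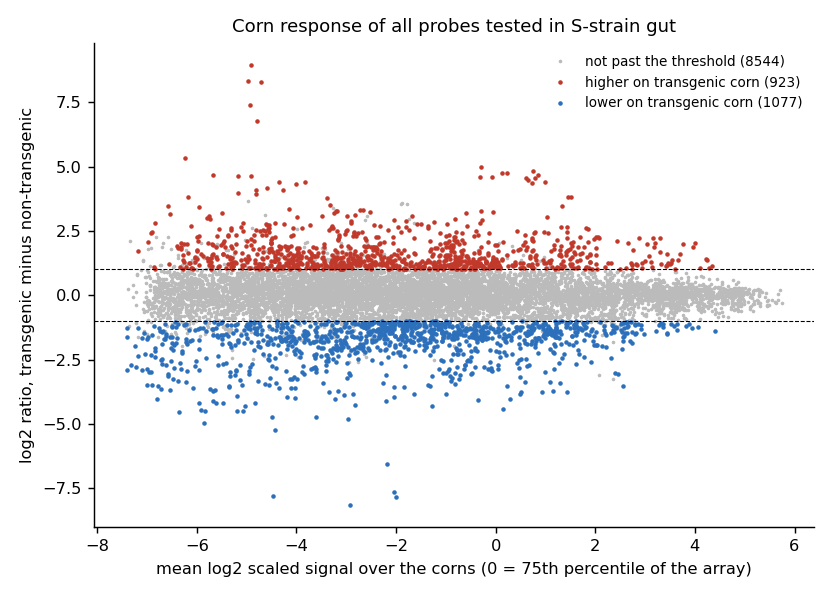
Each point is 1 of the 10544 probes tested in S-strain gut. The x axis is the mean log2 scaled signal of the corns and the y axis the log2 ratio of transgenic to non-transgenic corn, with dashed lines at a ratio of 2. The 923 probes in red were higher and the 1077 in blue lower on transgenic corn, and both kinds occur from the dimmest to the brightest signals.

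Probes of the same set gave like ratios. Of 2164 sets with at least 2 probes tested, 1585 (73.2%) had all probes on the same side, and all 401 of those past the threshold did. In 279 of the 401 every single probe was also past the threshold. The SD of the log2 ratios among the probes of a set had a median of 0.18. Probes of a set overlap and read the same or near-identical RNA, so this describes the measurement and adds no replicates.

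A smaller group of probes was seen on 1 corn only. The number well above background on all 4 arrays of non-transgenic corn and on no array of transgenic corn was 76, from 54 sets, and 64 of them were past the threshold. Only 8 probes, from 4 sets, showed the reverse, and all 8 were past it. Over all probes 10.2% were lower and past the threshold and 8.75% higher. The probes seen on 1 corn only were picked on the same signals that were tested, so nothing is read from these counts. Set against the lowest signal that was well above background on each dim array, the 8 were at least 2.34-fold to 107-fold higher on transgenic corn. The bound for the 76 had a median of 1.95-fold and reached at least 67-fold for ECB_Gut 10341, and in 3 of them it gave no fold. All bounds of this kind compare mean levels of the processed signal and do not extend to normexp. On transgenic replicate 1 the lowest level well above background was -5.24, and on the other 7 arrays it was -7.47 to -6.52. Without that array the numbers seen on 1 corn only were 79 and 21, and without transgenic replicate 4 they were 117 and 8.

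Of the 7 probe sets that hold a primer, 5 were lower on transgenic corn and past the threshold and none was higher, where 11.6% of all probe sets were lower and past it. Nothing is read from this count, since the genes had been picked as changed. Among the 4 serine protease genes, 3 were down-regulated in larvae fed transgenic corn leaves and Contig[0039] was not past the threshold. The transcript of Contig[0130], a chymotrypsin-like protease that cuts after aromatic residues, had levels of -0.05, 0.61, 0.24 and 0.82 on the 4 arrays of transgenic corn and 1.56, 1.99, 2.49 and 1.57 on those of non-transgenic corn. Each array of non-transgenic corn was above each array of transgenic corn, and the mean of the 5 probes fell by 1.5 ± 0.27 (SE, n = 4 per corn, limma adjusted p = 0.00319), a 2.82-fold decrease. The 5 probes lay between -1.62 and -1.35, and all 5 were past the threshold.

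The trypsin-like genes, whose products cut after lysine and arginine, also had negative log2 ratios. ECB-C-18-B11 had levels of -1.03, -1.13, -0.99 and -1.41 on transgenic corn and 0.70, 0.02, 0.51 and 0.46 on non-transgenic corn, and its 4 probes fell by 1.56 ± 0.19 on average (limma adjusted p = 0.000479). The arrays of transgenic corn were close together, with an SD of 0.19, and none overlapped with those of non-transgenic corn. Contig[0293], named through a match within a repeat, was more variable. Its levels were -2.89, -2.05, -1.01 and -1.91 on transgenic corn and -0.28, 0.10, -0.96 and -0.20 on non-transgenic corn. Its decrease was 1.63 ± 0.39 in log2 (limma adjusted p = 0.0109), and the highest array of transgenic corn nearly reached the lowest of the other corn. Within slide row 1 the log2 ratio of Contig[0293] was -1.36 and within slide row 2 -1.90, neither past the threshold.

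Contig[0039] showed the smallest difference among these proteases. Its 10 probes had mean levels of 1.5, 1.79, 2.12 and 1.62 on transgenic corn against 2.73, 2.61, 2.77 and 2.65 on non-transgenic corn, where the SD was only 0.07. The arrays did not overlap and the log2 ratio was -0.93 ± 0.17 (limma adjusted p = 0.00309), but the ratio of 1.91 was under the minimum of 2. With normexp the set was past the threshold, at -1.01 (limma adjusted p = 0.0231). Only 5 of the 10 probes hold the primer, and the other 5, numbered apart, were joined to them by overlap, so that near-identical copies of the gene may share the set. The median log2 ratio was -0.93 in the first 5 and -0.92 in the second.

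Aminopeptidases N are brush-border enzymes that trim peptides and bind Cry1 toxins in several moths, and 2 of their genes were read through a primer. Other genes of this family were not identified here. Contig[5112] had levels of -0.69, -0.69, -0.55 and -0.97 on transgenic corn and 0.88, 0.61, 0.78 and 0.87 on non-transgenic corn. The replicate arrays were tight, with SDs of 0.18 and 0.13, and the 2 probes fell by 1.51 ± 0.15 (limma adjusted p = 0.00023), a 2.85-fold decrease. The spot of ECB_Gut 9538 on non-transgenic replicate 3 was dropped as an outlier and filled with that probe's mean on the corn, as was that of 1 probe of ECB-C-18-B11 on the same array. Contig[1398] was read by 2 probes without a common overlap. ECB_Gut 2844 had levels of -0.36, -1.20, -0.81 and -0.66 on transgenic corn and 0.77, -0.08, 0.65 and 0.75 on non-transgenic corn, and fell by 1.28 ± 0.25 (limma adjusted p = 0.00467). The other probe, ECB_Gut 2843, had a log2 ratio of -0.91 ± 0.25 (limma adjusted p = 0.0221), again without overlap of the corns but with a ratio of 1.88 under the minimum. With normexp the log2 ratios of ECB_Gut 2844 and Contig[0293] were -0.82 and -1.08 and not past the threshold. Within single slide rows Contig[0130] was not past it in row 1, at -1.31, nor ECB-C-18-B11 and ECB_Gut 2844 in row 2, at -1.25 and -0.92.

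**Figure D2:**
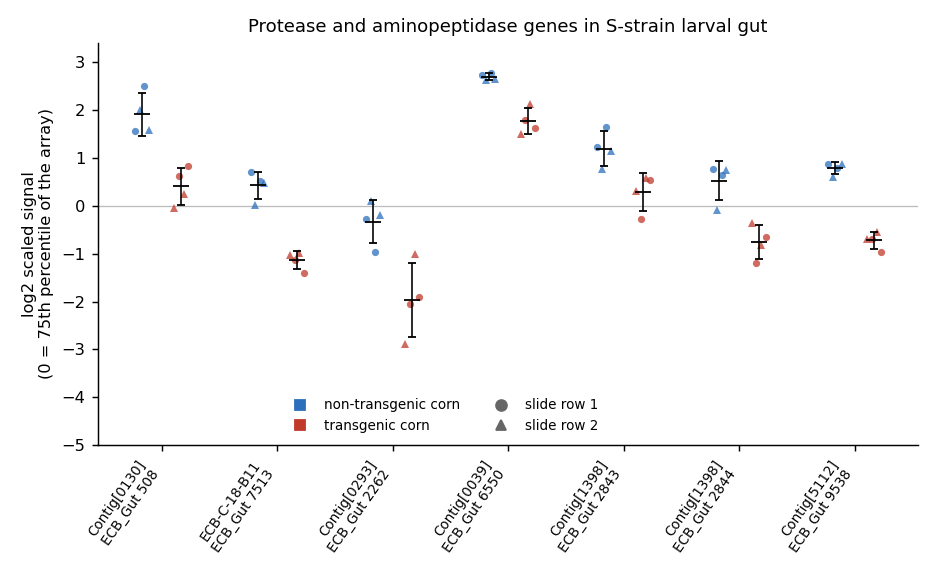
Log2 scaled signal of the 7 probe sets that hold a primer, with 1 point per array, circles for slide row 1 and triangles for slide row 2. Black bars are the mean and SD of 4 arrays, blue non-transgenic and red transgenic corn. The arrays of the corns do not overlap in these 7 sets, which the study had picked as changed, and 17.8% of all sets were lower without overlap. The differences run from 0.91 to 1.63 on the log2 scale, and Contig[0039] and ECB_Gut 2843 did not pass the threshold.

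Without names, the letters of the probes were searched on both strands for the coding signatures of 8 enzyme families, after ratios had been seen. A match is a description of the letters and names no gene. Those with a probe past the threshold and no match on the opposite strand are printed, with the signature in capitals.
ECB_Gut 2923, serine protease active-site signature: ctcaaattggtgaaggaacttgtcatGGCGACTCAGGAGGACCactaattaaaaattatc
ECB_Gut 10247, zinc aminopeptidase exopeptidase signature: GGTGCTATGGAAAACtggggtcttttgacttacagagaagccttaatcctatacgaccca
ECB_Gut 1654, cytochrome P450 haem-binding signature: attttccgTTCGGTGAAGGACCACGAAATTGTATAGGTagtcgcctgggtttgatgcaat
ECB_Gut 11098, cytochrome P450 haem-binding signature: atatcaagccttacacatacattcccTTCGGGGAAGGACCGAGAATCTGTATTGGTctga
ECB_Gut 4162, carboxylesterase type-B signature: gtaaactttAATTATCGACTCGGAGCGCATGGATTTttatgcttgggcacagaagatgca
ECB_Gut 10666, carboxylesterase type-B signature: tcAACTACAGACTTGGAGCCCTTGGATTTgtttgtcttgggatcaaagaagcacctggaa
ECB_Gut 4419, glycosyl hydrolase family 1 signature: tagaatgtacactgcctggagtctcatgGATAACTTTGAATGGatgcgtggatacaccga

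These signatures are shown because a probe with them passed the threshold, so their counts are a description, beside 8.75% of all probes that were higher and 10.2% that were lower. The serine protease signature stood in 1 probe (0.00771% of all 12972), ECB_Gut 2923, with levels of -2.26, -1.74, -1.77 and -1.83 on transgenic corn and -0.37, -0.04, 0.54 and -0.04 on non-transgenic corn. That is a decrease of 1.92 ± 0.23 in log2 (limma adjusted p = 0.000568). The aminopeptidase signature was found in 2 probes of 1 set (0.0154%), with log2 ratios of -1.14 and -1.02, both past the threshold. The signature of cytochromes P450, haem enzymes that oxidise plant toxins among other compounds, stood in 6 probes of 3 sets (0.0463%), of which 5 were past the threshold and lower. ECB_Gut 1654 had levels of -1.27, -1.34, -1.23 and -1.28 on transgenic corn and 0.35, -0.81, 0.23 and 0.63 on non-transgenic corn, where replicate 2 was the lowest. The 4 probes of the set of ECB_Gut 11098 overlap and had log2 ratios of -1.92 to -1.67. The remaining P450 probe, ECB_Gut 575, had a log2 ratio of 0.04 ± 0.15 (limma adjusted p = 0.875), with levels of 4.72 to 4.87 on transgenic corn and 4.56 to 4.91 on non-transgenic corn.

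The carboxylesterase signature, found in enzymes that split esters of dietary and foreign compounds, stood in 4 probes of 3 sets (0.0308%), of which 3 were past the threshold. ECB_Gut 10666 had levels of -2.51, -3.09, -3.0 and -2.61 on transgenic corn and -1.12, -1.51, -0.80 and -1.46 on non-transgenic corn, a log2 ratio of -1.58 ± 0.23 (limma adjusted p = 0.00123). ECB_Gut 7936 had a log2 ratio of -0.58 ± 0.24 (limma adjusted p = 0.105). The glycosyl hydrolase family 1, to which insect beta-glucosidases belong, had 1 probe with its signature (0.00771%), ECB_Gut 4419. Its levels were -6.24, -6.27, -5.58 and -5.87 on transgenic corn and -1.29, -1.98, -0.06 and -1.61 on non-transgenic corn. The signatures of lipases, esterases and zinc proteases matched the opposite strand as well, at 1, 1 and 30 probes against 3, 2 and 16 on the strand as given, and are not read.

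The 12 largest falls and the 12 largest rises were taken from 372 probe sets. These sets had at least 2 probes, all on the same side, were past the threshold and showed no overlap of the corns. Each was also well above background on every array of transgenic corn, of non-transgenic corn or of both. Among these sets 196 fell and 176 rose. The probe sets that follow have no gene name here. The first 30 of the 60 bases of a probe are printed for 5 of them, chosen for the largest ratio in each direction, for small SDs, or, for ECB_Gut 1015, for signals above background on both corns.
ECB_Gut 10337, largest fall: ccaagattactggagcttttccatacgttc
ECB_Gut 1015, fall, above background on all 8 arrays: gatgtgaaacaaggctgctgtacgtttgtg
ECB_Gut 7803, largest rise: ggctaagtctcacctatgtaaagtaattgt
ECB_Gut 6191, rise with small SDs: gaggcgaagttaatgcaagcaaagtggtag
ECB_Gut 10557, rise with small SDs: ccgcaatagttgttgcgcttagtttcaaat

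The most negative log2 ratio with the processed signal was that of ECB_Gut 10337. Its levels were -7.12, -6.28, -6.48 and -6.22 on transgenic corn and 1.21, 0.92, 1.22 and 0.97 on non-transgenic corn. All 5 probes fell, with log2 ratios of -8.15 to -6.58, and the mean was -7.61 ± 0.22 (limma adjusted p = 4.37e-07), against -3.99 with normexp. The size of the decrease is therefore uncertain. Its probe ECB_Gut 10341, above background on no array of transgenic corn, is the one with a decrease of at least 67-fold with the processed signal. The spots of its first probe on non-transgenic replicates 2, 3 and 4 were outliers and were filled with the value of replicate 1. Single spots were filled in the same way in ECB_Gut 4160, ECB_Gut 7803, ECB_Gut 5621 and ECB_Gut 9763. On transgenic corn the set was well above background on 3 of the 4 arrays, and the low level is near the limit of the array. ECB_Gut 1015 stayed well above background on every array of both corns. It had levels of -0.95, -1.83, -0.68 and -0.75 on transgenic corn and 2.60, 2.59, 3.15 and 2.71 on non-transgenic corn. Its 5 probes had log2 ratios of -4.05 to -3.74, and their mean fell by 3.81 ± 0.27 (limma adjusted p = 5.71e-05), a 14.1-fold decrease.

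The neighbouring sets ECB_Gut 4419, whose first probe holds the glycosyl hydrolase signature, and ECB_Gut 4421 had log2 ratios of -4.87 ± 0.38 and -4.86 ± 0.34 (limma adjusted p = 8.5e-05 and 5.71e-05). Both were at or near background on transgenic corn, and with normexp their log2 ratios were -1.12 and -0.82, not past the threshold. ECB_Gut 4421 had levels of -2.82, -2.67, -1.26 and -2.77 on non-transgenic corn and was above background on no array of transgenic corn. With the processed signal this gives a decrease of at least 17.4-fold, a bound that did not hold with normexp. These 2 sets join when an overlap of 10 bases between consecutive probe numbers is accepted, as do ECB_Gut 7618 and ECB_Gut 7620, so the 12 falls may come from fewer than 12 transcripts. ECB_Gut 7618 fell by 4.13 ± 0.47 and ECB_Gut 7620 by 4.17 ± 0.43. Their arrays of transgenic corn ran in the same order, with replicate 2 lowest at -4.86 and -6.05 and replicate 1 highest at -2.60 and -4.15.

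ECB_Gut 4162, with the carboxylesterase signature, and the neighbouring ECB_Gut 4160 were dim on both corns. Their log2 ratios were -4.11 ± 0.49 and -4.15 ± 0.51. ECB_Gut 4162 was above background on no array of transgenic corn, a decrease of at least 4.45-fold with the processed signal. ECB_Gut 1440 had the same pattern, with levels of -4.74, -5.11, -4.75 and -4.29 on non-transgenic corn and a decrease of at least 3.77-fold with the processed signal. With normexp the log2 ratio was 0.22 for ECB_Gut 4162 and 0.28 for ECB_Gut 1440, not past the threshold, so neither bound held there. The median of all probe sets with normexp was 0.47. The other falls were ECB_Gut 1840 with -3.79 ± 0.43, ECB_Gut 1835 with -3.59 ± 0.49 and ECB_Gut 8723 with -3.47 ± 0.99. ECB_Gut 8723 was the least certain, since its levels on transgenic corn were -2.54, -5.11, -3.67 and 0.46, with replicate 4 close to the lowest non-transgenic array at 0.53 (limma adjusted p = 0.0246). Without transgenic replicate 3 or non-transgenic replicate 3 it was no longer past the threshold, nor with slide row 1 alone, at -3.19, in the limma fit of all 16 arrays (adjusted p = 0.133) or with the methods' t-test after Benjamini-Hochberg adjustment. With normexp ECB_Gut 10337 remained past the threshold, as did ECB_Gut 1015 at -3.52, ECB_Gut 7618 at -2.60 and ECB_Gut 8723 at -2.66, and the other 8 falls were not past it.

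The clearest rises were ECB_Gut 6191 and ECB_Gut 10557, which were well above background on all 8 arrays. ECB_Gut 6191 had levels of 3.06, 3.54, 3.06 and 2.72 on transgenic corn and -1.51, -1.62, -1.33 and -1.59 on non-transgenic corn. The increase was 4.61 ± 0.19 in log2, or 24.4-fold (limma adjusted p = 4.28e-06), and its 5 probes lay between 4.39 and 4.85. For ECB_Gut 10557 the levels were 2.85, 3.43, 3.46 and 2.77 on transgenic corn and -0.97, -0.84, -0.61 and -1.0 on non-transgenic corn. It rose by 3.98 ± 0.21, or 15.8-fold (limma adjusted p = 8.23e-06). In both sets the gap between the corns was many times the SD of the replicates, which did not exceed 0.37.

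ECB_Gut 7803 had the largest ratio and the widest spread. Its levels were 1.30, 0.11, -5.07 and 0.09 on transgenic corn and -8.86, -9.06, -9.21 and -8.23 on non-transgenic corn. Replicate 3 of transgenic corn lay far below the other 3, yet above all arrays of non-transgenic corn, and the mean ratio was 7.95 ± 1.19 (limma adjusted p = 0.00137). On non-transgenic corn the set was well above background on 1 of 4 arrays, and 4 of its 5 probes were so on none. For these 4 probes the increase was at least 54.3-fold to 107-fold with the processed signal. With normexp the log2 ratio of the set was 3.57.

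The other 9 rises ranged from 2.75 to 4.28 on the log2 scale. ECB_Gut 10607 and ECB_Gut 12763 had similar levels on transgenic corn on all 4 arrays, from -2.51 to -1.59 and from -3.39 to -2.62. Their ranges on non-transgenic corn were wide, from -8.87 to -4.13 and from -8.56 to -5.30. There they were well above background on only 3 and 2 of the 4 arrays. The low ends of these ranges are near the limit of the array, so the size of both rises is uncertain. With normexp their log2 ratios were 2.24 and 2.03. ECB_Gut 1777 had levels of 1.19, 1.70, 0.25 and 1.47 on transgenic corn and -2.8, -2.02, -2.23 and -0.83 on non-transgenic corn, a rise of 3.12 ± 0.45 (limma adjusted p = 0.0011). ECB_Gut 5221 had 0.36, 0.67, -1.35 and 0.68 against -2.94, -2.78, -3.22 and -1.68. ECB_Gut 6790, ECB_Gut 5621, ECB_Gut 5551, ECB_Gut 9763 and ECB_Gut 12121 rose by 3.75 ± 0.68, 3.37 ± 0.75, 3.25 ± 0.65, 3.00 ± 0.60 and 2.75 ± 0.51. With normexp ECB_Gut 6790, ECB_Gut 9763 and ECB_Gut 12121 were not past the threshold, at 1.63, 1.57 and 1.42, and the other 9 of the 12 rises were.

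The same arrays stood out in most of these rises. Transgenic replicate 3 was the lowest array of its corn in 9 of the 12 rises, non-transgenic replicate 4 the highest of its corn in 9, and both held in 8. Both arrays lay in slide row 2. Over 369 sets that rose with a value on all 8 arrays, transgenic replicate 3 was the lowest in 101 and non-transgenic replicate 4 the highest in 101. Other arrays held these places more often there, transgenic replicate 2 in 106 and non-transgenic replicate 2 in 128. The pattern of the 12 rises was thus not that of all rising sets. Among the 72 of these sets with a ratio of at least 4, transgenic replicate 3 was the lowest in 24 and transgenic replicate 2 in 22. Non-transgenic replicate 4 was the highest in 26 of the 72 and non-transgenic replicate 2 in 24. The log2 ratio was larger in slide row 1 than in slide row 2 for 10 of the 12 rises, all but ECB_Gut 6191 and ECB_Gut 10557, and for 10 of the 12 falls. With the 4 arrays of slide row 2 alone those same 10 rises were not past the threshold, and with slide row 1 alone all 12 were. Whether the pools or the slide row moved these values was not tested. Among the 12 falls non-transgenic replicate 2 was the lowest array of its corn in 9, and it was the lowest in 239 of 505 sets that fell.

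**Figure D3:**
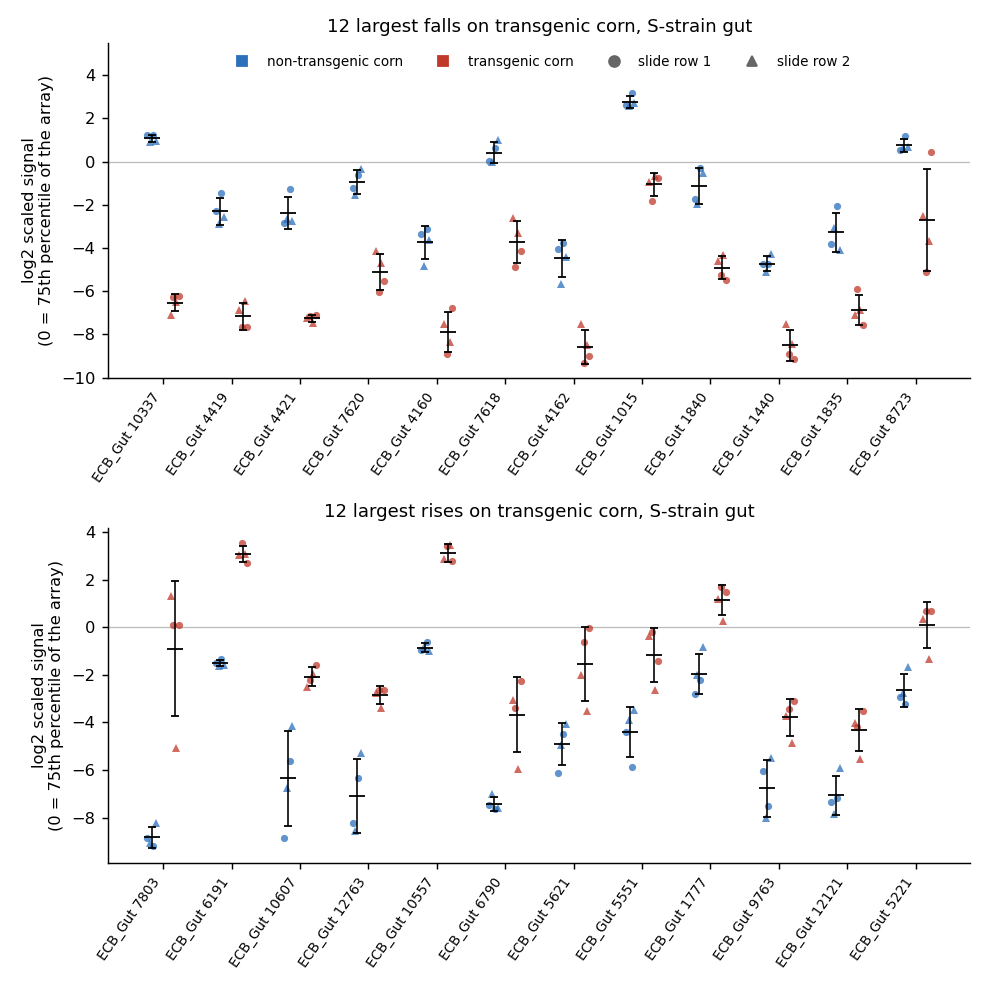
Log2 scaled signal of the 12 largest falls (upper panel) and the 12 largest rises (lower panel), 1 point per array, circles for slide row 1 and triangles for slide row 2, with the mean and SD of 4 arrays as black bars. ECB_Gut 6191 and ECB_Gut 10557 show tight replicates on both corns, whereas ECB_Gut 7803 has 1 array of transgenic corn at -5.07 and the other 3 at 0.09 to 1.30.

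The response of S-strain was then set against that of R-strain in a fit of all 16 arrays, with the difference of the responses as the test. Strain and slide cannot be told apart, but both corns lay on each slide. Of 4437 probe sets, 329 differed (7.41%), with the log2 ratio above that of R-strain in 111 (2.5%) and below it in 218 (4.91%). These sets were kept by their signals on the S-strain arrays alone, so RNA seen only in R-strain could not enter. All shares given for either strain refer to these sets. Of the 373 sets that rose in S-strain and were tested in both, 164 also rose in R-strain, where 274 of all sets rose (6.18%), and the difference was past the threshold for 56. Of the 513 falling sets of S-strain, 81 also fell in R-strain, where 154 fell (3.47%), 4 rose, and the difference was past the threshold for 178. The median R-strain log2 ratio was 0.92 in the former group and -0.54 in the latter. Both groups were chosen by their S-strain ratios, which favours a smaller response in R-strain and a difference between the strains. Their counts and medians are therefore a description. Without R-strain non-transgenic replicate 1 or 3, 208 and 215 sets differed. With normexp only 52 differed (1.17%), 21 above and 31 below, and with array weights 498.

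The leading sets had been chosen for the size of their S-strain ratios, which favours a smaller response in R-strain, so their values are set side by side as a description. Among the 12 falls the difference was past the threshold for all but ECB_Gut 8723, beside 4.91% of all sets, and nothing is read from that count. ECB_Gut 10337 also fell in R-strain, by 3.33 (limma adjusted p = 0.000269), and the difference was -4.28 ± 0.64. ECB_Gut 1015 fell by 1.71 in R-strain, with a difference of -2.10 ± 0.43. ECB_Gut 1840 had a log2 ratio of -0.31 in R-strain, with means of 0.00 ± 0.20 and 0.31 ± 0.48 (SD, n = 4), and a difference of -3.48 ± 0.52.

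Among the leading rises, ECB_Gut 6191, ECB_Gut 10557 and ECB_Gut 12121 also rose in R-strain, by 2.69, 1.24 and 2.56 on the log2 scale, and the difference was 1.92 ± 0.33 for the first, 2.74 ± 0.33 for the second and 0.19 ± 0.74 for the third. The other 9 had negative log2 ratios in R-strain, from -2.19 to -0.34, none of them past the threshold. The difference was 5.76 ± 0.93 for ECB_Gut 12763 and 4.17 ± 0.58 for ECB_Gut 1777, and 8.46 ± 3.28 for ECB_Gut 7803, where it was not past the threshold.

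The genes known through primers had likewise been picked as changed, so their differences between the strains are given with the same reserve. Contig[0130] had a log2 ratio of -0.36 in R-strain and differed by -1.14 ± 0.32 (limma adjusted p = 0.0394), whereas for Contig[0293] and ECB-C-18-B11 the differences of -1.27 ± 0.44 and -0.89 ± 0.38 were not past the threshold (limma adjusted p = 0.0888 and 0.167). For Contig[0039] the difference was -0.77 ± 0.21, under the minimum ratio. The aminopeptidase Contig[5112] had a log2 ratio of -0.47 in R-strain and a difference of -1.23 ± 0.22 (limma adjusted p = 0.00445). This comparison rests on 1 of the 2 probes, with a log2 ratio of -1.70 in S-strain, because ECB_Gut 9538, which holds the primer, had no spot left in an R-strain group after outliers were dropped. Contig[1398] lay on opposite sides, with R-strain log2 ratios of 1.07 for ECB_Gut 2843 and 0.68 for ECB_Gut 2844, and differences of -1.98 ± 0.31 and -1.96 ± 0.32 (limma adjusted p = 0.00203 and 0.00235).

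**Figure D4:**
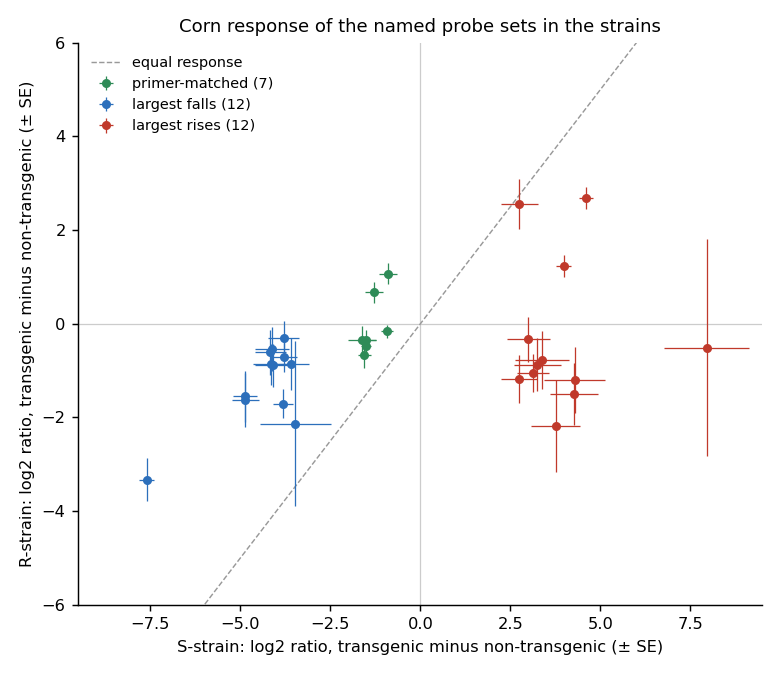
Log2 ratio of transgenic to non-transgenic corn in S-strain (x axis) and R-strain (y axis) for the 31 named probe sets, with bars for the standard error and a dashed line for equal responses. The 2 probe sets of Contig[1398] are the green points above 0 in R-strain, and 9 of the 12 red points lie below 0 there. For Contig[5112] the S-strain value is the mean of 2 probes and the R-strain value that of 1.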

How the data were processed

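RNA of 8 S-strain and 8 R-strain pools of 5 guts was labelled with Cy3, hybridised and read by the authors with Agilent Feature Extraction 9.5. The authors deposited the processed signal, an intensity after background subtraction and detrending, the mean spot and background intensity, and other marks of background and outliers. The deposited log2 table by the authors equals the log2 processed signal minus 1 constant per array near the 75th percentile, apart from a few probes. These were 63 on S-strain transgenic replicate 2, 14 on R-strain transgenic replicate 4 and 2 on R-strain non-transgenic replicate 3. The deposited log2 table served as an alternative. Here the log2 processed signal was reduced by its 75th percentile, outlier spots were dropped, and a probe was kept when its signal exceeded background clearly on 4 or more of the 8 S-strain arrays. In a probe set a missing spot was filled with the probe's mean in that corn and strain, and 6 probes with no spot left in a corn were removed. Tests used limma 3.58.1 in R 4.3.3, without covariates, and were tested on simulated data. Arrays hold no counts, so their number limits the precision.

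Named probe sets were the 12 largest falls and rises under the criteria given in the text and those that held a primer. The planned gene lists and cell type markers could not be applied, because the tables used here do not pair probes with genes, and the gut label was therefore not checked against markers. Members, lists and criteria were chosen with earlier results of these data known. Each pool is a separate group of larvae of 1 colony. The series text gives another number of samples than the labels, which were followed. The labels number the S-strain pools 1 to 4.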

Additional observations from a re-analysis of the deposited data

Results flagged for a closer look

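Of the 62 groups of 4 arrays behind the 31 named probe sets, 3 held an array that stood apart from the other 3 by more of the range than Dixon's critical value for 4 samples allows, where chance alone gives about 1 in 20. ECB_Gut 2844, of the aminopeptidase Contig[1398], was lowest in non-transgenic replicate 2, at -0.083. ECB_Gut 4421 was highest in non-transgenic replicate 3, at -1.26, and ECB_Gut 5221 was lowest in transgenic replicate 3, at -1.35.

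The corn response differed between S-strain and R-strain for 25 of the 31 named probe sets, by the test of the difference in the fit of all 16 arrays, where 7.41% of all 4437 sets differed. The 31 sets had been chosen for their S-strain ratios or through genes that the study called changed, so this count is a description and no evidence that these sets stand apart. Differences of the log2 ratio below 0, S-strain minus R-strain, were found for ECB_Gut 508 (-1.14), ECB_Gut 2843 (-1.98), ECB_Gut 2844 (-1.96), ECB_Gut 9538 (-1.23, from 1 of its 2 probes), ECB_Gut 10337 (-4.28), ECB_Gut 4419 (-3.24), ECB_Gut 4421 (-3.32), ECB_Gut 7620 (-3.56), ECB_Gut 4160 (-3.28), ECB_Gut 7618 (-3.58), ECB_Gut 4162 (-3.22), ECB_Gut 1015 (-2.10), ECB_Gut 1840 (-3.48), ECB_Gut 1440 (-3.07) and ECB_Gut 1835 (-2.73). Differences above 0 were found for ECB_Gut 6191 (1.92), ECB_Gut 10607 (5.48), ECB_Gut 12763 (5.76), ECB_Gut 10557 (2.74), ECB_Gut 6790 (5.94), ECB_Gut 5621 (4.14), ECB_Gut 5551 (4.12), ECB_Gut 1777 (4.17), ECB_Gut 9763 (3.33) and ECB_Gut 5221 (3.92). Their standard errors ran from 0.22 to 1.38.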

How the results depend on the processing

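With normexp background correction the corn response in S-strain fell to 889 probes and 399 probe sets, and the difference between strains to 52 sets. A minimum ratio of 3 gave 914 probes and 389 sets, one of 1.5 gave 1458 sets, and no minimum gave 3060 probes and 1562 sets, with more probes higher than lower at 1.5 and with no minimum. With slide row 1 alone, an alternative added after the data were seen, 1019 probes and 543 sets were past the threshold, and with slide row 2 alone 351 and 337, each with 4 of the 8 arrays. Array weights gave 498 sets for the difference between strains. Leaving out 1 array gave 1753 to 2039 probes, 812 to 920 sets and 208 to 375 sets for the difference. The methods' t-test with a ratio of 2 gave 2025 probes unadjusted and 1646 after Benjamini-Hochberg adjustment. The replicate numbers did not pair the arrays, with correlations of the deviations of same-numbered arrays of -0.07 to 0.09. The replicate block gave 1955 probes, 867 sets and 304 sets for the difference, against 2000, 891 and 329. Same-numbered S-strain arrays lay in the same slide column, so this block is also a block by slide column. Of the 31 named sets, ECB_Gut 4162 and ECB_Gut 1440 had log2 ratios of 0.22 and 0.28 with normexp. These were not past the threshold and lay below the median of all sets with normexp, 0.47. Another 11 named sets were no longer past the threshold with it. Median, quantile and deposited log2 scaling changed the call of none of the 31. Several of the leading falls and rises had the low corn at or near background, where the size of a ratio is uncertain. The causes were not tested.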
